A study of Mus musculus with 120 samples.

Results

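Gene expression was compared across all genes between the medulla of 26-week-old 175QK772T mice and that of WT mice of the same age. These were the 8 libraries titled medulla 175QK772T and medulla WT at 26 weeks, 4 of each, out of 120 libraries in the series. Spinocerebellar ataxia type 1 is a dominant disease in which a CAG repeat of Atxn1, the gene of ataxin-1, is too long. The 175QK772T knock-in mice model it with a long-repeat allele that also carries K772T, a mutation of the signal that takes ataxin-1 into the nucleus. 175Q mice carry the lengthened allele with an intact signal, and their 4 medulla libraries shared the fit and served as a second comparison. WT mice carry neither change. All mice were C57BL/6J, each medulla group held 2 females and 2 males, and each mouse gave 5 brain regions. No mouse with K772T on an allele of normal length was among these libraries, so an effect of K772T by itself cannot be told apart from what is left of the effect of the repeat. Sample descriptions give the same lines a smaller repeat number in their names, and the genotype field was followed here.

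The medulla is the lowest part of the brainstem, with the inferior olive that sends climbing fibres to the cerebellum, monoamine neurons, motor nuclei and many astrocytes around them. Ataxin-1 is carried into the nucleus by a short basic signal, binds the transcriptional repressor Capicua there, and with a lengthened glutamine tract alters transcription in neurons. The question of the comparison is which changes remain against WT when that signal is mutated. In the GENCODE M21 transcript Atxn1-201, whose longest open reading frame has 791 codons, the single arginine-lysine-arginine-arginine run was encoded by the stretch below. The capitals mark the lysine codon, codon 747 of this mouse frame. The longest run of glutamine codons anywhere in the frame is 3, and the site of the knock-in tract was not located in it. The lysine is numbered by the human protein in the genotype name, and the edited bases are not given in the sources used here.

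Atxn1 nuclear localization signal codons: acagccacgaggAAGaggaggtggtcggcg

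Library totals were 32507828 to 43504263 counts in 175QK772T, 33265223 to 54717643 counts in 175Q and 42064636 to 52319604 counts in WT. Mitochondrially encoded genes took 5.2 to 5.94% of counts in 175QK772T and WT libraries. Genes of the tissue were present: per kilobase of transcript, Slc6a5, the glycine transporter of hindbrain inhibitory neurons, was at 59.2 to 71.2 CPM in 175QK772T and 72.7 to 80.1 CPM in WT, and Hoxb5 at 23.6 to 29.5 and 19.8 to 28.6 CPM. CPM is the standard count unit scaled to library size, here after TMM scaling. Neighbouring tissue was uneven. The 12 choroid plexus genes, Ttr foremost, summed to 36.3, 3823, 71.1 and 44 CPM in the 4 175QK772T libraries and to 2942, 3950, 1097 and 2903 CPM in the WT libraries, so that 175QK772T replicate 2 stood with the WT group. Summed meningeal and fibroblast genes ran from 99.7 to 125 CPM in 175QK772T and from 144 to 180 CPM in WT. WT replicate 4 had 154.3 CPM of cerebellar neuron genes where the other WT libraries had 34.3 to 42.4 CPM. WT replicate 1 had 197 CPM of B cell genes where the others had 60.9 to 75.9 CPM.

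**Figure D1:**
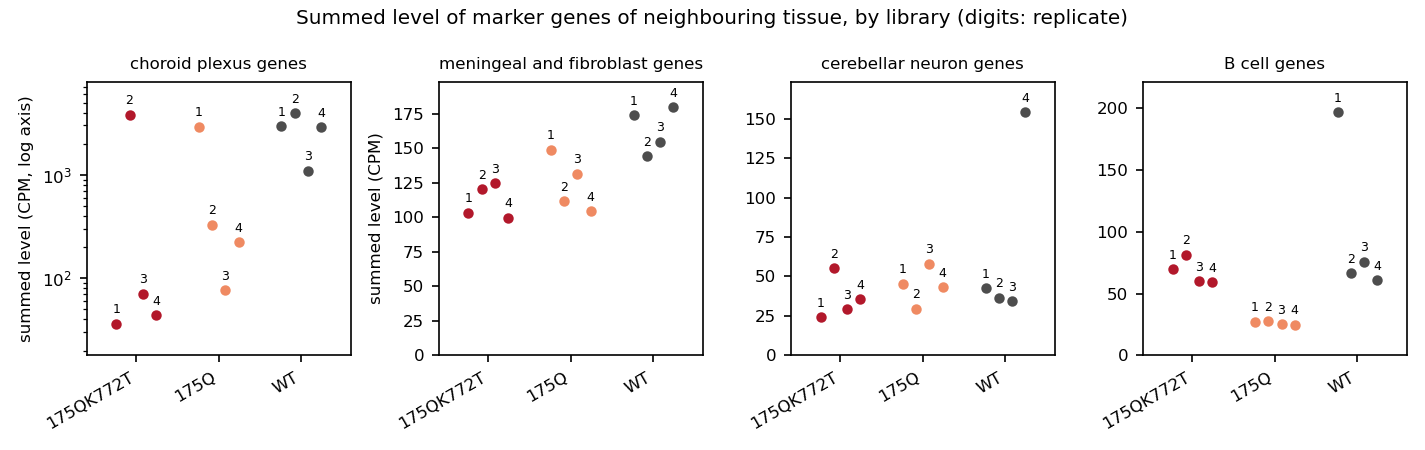
Summed CPM of marker genes of neighbouring tissue in each medulla library of 175QK772T, 175Q and WT mice; each point is 1 library and the digit is its replicate. The choroid plexus axis is logarithmic and the others start at 0; 3 of 4 175QK772T libraries lie between 36.3 and 71.1 CPM for choroid plexus genes, against 1097 to 3950 CPM in WT.

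Fewer genes were higher than lower. Of 19787 genes tested, 412 (2.08%) passed in 175QK772T against WT at an adjusted p below 0.05 in edgeR's quasi-likelihood test with sex as a covariate, and these are the genes called here. Of all tested, 111 (0.561%) were called higher and 301 (1.52%) called lower in 175QK772T. Most differences were small: the median size was 0.35 on the log2 scale, 95 calls reached 1.5-fold, and 32 reached 2-fold, 8 higher and 24 lower. The 4 values of each group did not overlap for 385 of the 412 called genes, against 1680 (8.49%) of all genes tested. Without 175QK772T replicate 2, the library rich in choroid plexus RNA, 926 genes were called, and without 175QK772T replicate 4 or WT replicates 1, 3 or 4 there were 221, 237, 241 and 210. No gene called in the full set was called in the other direction in any of these fits. In bulk tissue, fewer cells of a type and less RNA per cell cannot be told apart.

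**Figure D2:**
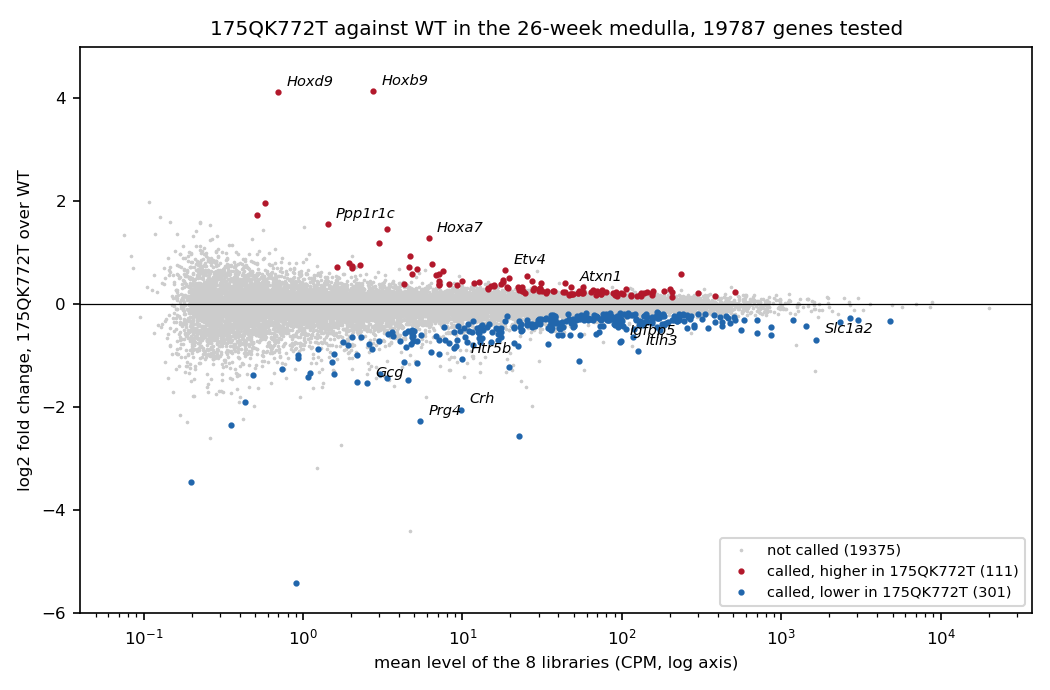
Log2 fold change of 175QK772T over WT (vertical axis) against the mean level of the 8 libraries in CPM (log axis) for 19787 genes; each point is a gene, red called higher, blue called lower. Hoxb9 and Hoxd9 lie above 4, and Crh, Prg4 and mt-Nd4l are among the points below -2.

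Atxn1, the edited gene itself, was higher in 175QK772T. It lies on chromosome 13 at 45549755-45965008 (GRCm38). Its level was 54.3, 56.4, 48.3 and 55.7 CPM in 175QK772T, 60.9, 54.1, 54.7 and 51.1 CPM in 175Q and 41, 40.3, 42.6 and 45.4 CPM in WT. Every 175QK772T value was above every WT value, and the 175QK772T and 175Q values overlapped. The log2 fold change against WT was 0.34 ± 0.063 (edgeR adjusted p 0.00888), and against 175Q it was -0.04 (adjusted p 0.734). These counts hold both alleles together, so they do not show which mutation a library carries. The rise was not called in every region of the same mice. Atxn1 was called higher than WT in the hippocampus (log2 fold change 0.31 ± 0.067). It was not called in the cortex (0.39 ± 0.18), cerebellum (0.06 ± 0.14) or striatum (-0.02 ± 0.084). The cortex value was no smaller than that of the medulla, with a wider error. Atxn1 shares exon bases with Gmpr on the other strand, and the strand setting of the 26-week counts is not stated.

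Of the 8 genes listed as partners of ataxin-1, among them Cic, Atxn1l and Rbm17, none was called, and their median log2 fold change was 0.01. The median over all genes tested was -0.00089.

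Astrocyte genes were lower as a group. Astrocytes take up glutamate and GABA, buffer potassium and feed glutamine back to neurons. Of 12 astrocyte markers, 7 were called lower and none higher, with a median log2 fold change of -0.38. Of 11 genes of astrocyte transport and metabolism, 3 of which are also among the markers, 8 were called lower and none higher, with a median of -0.40. The markers together summed to 5002, 4795, 4974 and 5156 CPM in 175QK772T and to 6699, 6650.3, 6550.4 and 6581 CPM in WT. All 4 175QK772T libraries, replicate 2 included, lay below all WT libraries.

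Slc1a2, the main glutamate transporter of astrocytes (chromosome 2, 102658659-102790784), was at 1137, 1255, 1300.1 and 1404 CPM in 175QK772T against 2138.5, 1993, 1983 and 2053 CPM in WT. The groups were far apart, and the log2 fold change was -0.68 ± 0.063 (edgeR adjusted p 3.92e-05). Kcnj10, the Kir4.1 potassium channel (chromosome 1, 172341210-172374085), was at 552, 584, 576 and 577 CPM in 175QK772T against 848, 854, 824 and 826 CPM in WT. Its values were tight within each group, and the log2 fold change was -0.55 ± 0.047 (adjusted p 2.01e-05). Glul, glutamine synthetase, averaged 1227 CPM in 175QK772T and 1650 CPM in WT, with no overlap and a log2 fold change of -0.43.

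The gap junction proteins of astrocytes moved the same way: the log2 fold change was -0.46 ± 0.049 for Gja1 and -0.41 ± 0.050 for Gjb6. It was -0.40 ± 0.046 for Fgfr3, a growth factor receptor of the lineage, and -0.46 ± 0.050 for the bicarbonate carrier Slc4a4. The GABA transporter Slc6a11 had -0.50 ± 0.070 and angiotensinogen, Agt, -0.62 ± 0.085. All of these had an edgeR adjusted p between 0.000164 and 0.00133. Aqp4, the water channel of astrocyte endfeet, averaged 337 ± 7.7 CPM in 175QK772T and 429 ± 40 CPM in WT (SD, n = 4 each). Not every astrocyte gene was called, though all 12 markers and all 11 transport genes had negative values. Slc1a3, the other astrocyte glutamate transporter, averaged 230.5 CPM in 175QK772T and 232 CPM in WT, a log2 fold change of -0.01 ± 0.049, and Gfap, Aldh1l1, Sox9 and Aldoc did not pass. Leaving out 1 library gave 7 to 8 called markers and 7 to 9 called transport genes, and all alternatives together gave 6 to 9 of each.

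Itih3, a hyaluronan-binding protein of the inter-alpha-trypsin inhibitor family, had the lowest adjusted p of all genes. It lies on chromosome 14 at 30908572-30923760 and was at 87.4, 82.9, 84.9 and 95.0 CPM in 175QK772T against 164, 173, 166 and 153.7 CPM in WT. The log2 fold change was -0.91 ± 0.052 (edgeR adjusted p 5.43e-07). Etnppl, a phospholyase found in astrocytes, was at 31.4, 29.98, 35.4 and 39.3 CPM in 175QK772T against 66.2, 88.7, 60.4 and 76.9 CPM in WT. Its log2 fold change was -1.10 ± 0.072 (adjusted p 1.54e-06), and Lrig1, a negative regulator of growth factor receptors, had -0.49 ± 0.041 (adjusted p 1.98e-05).

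**Figure D3:**
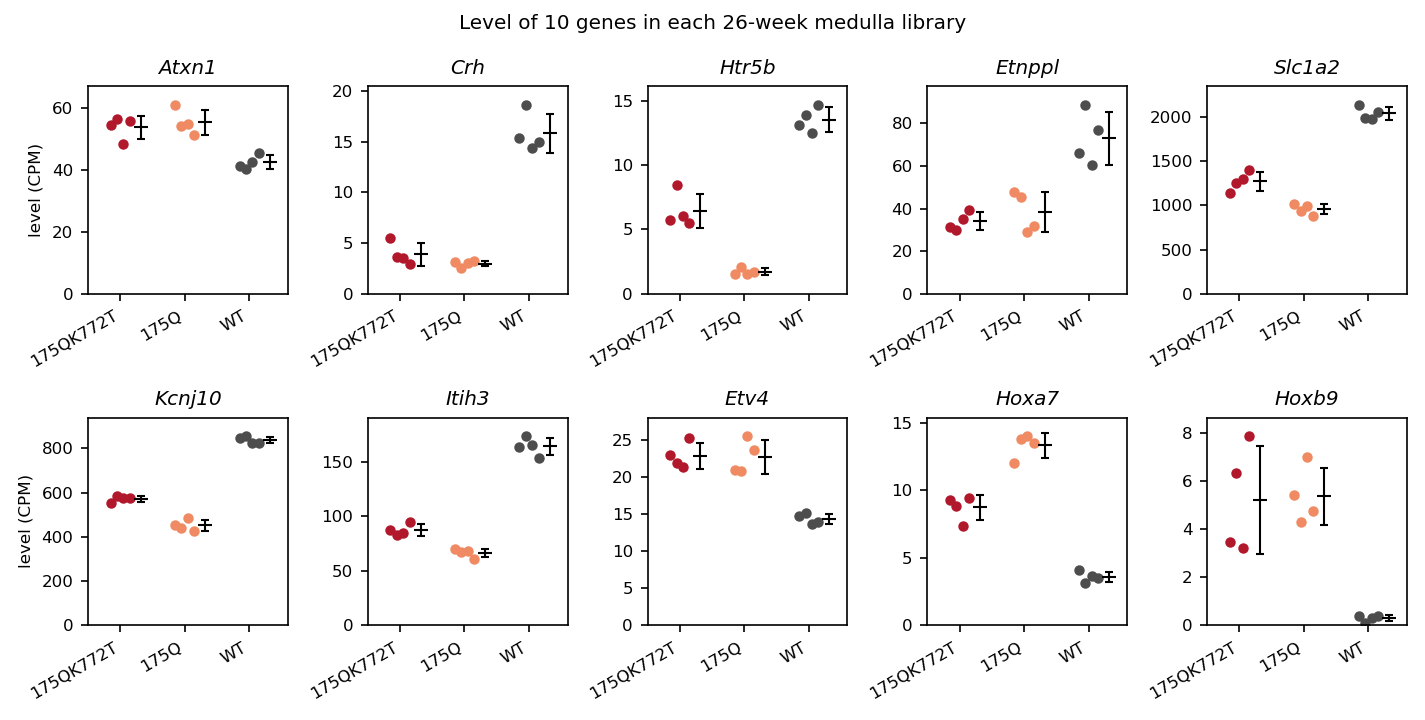
Level in CPM of 10 genes in each medulla library of 175QK772T, 175Q and WT mice; points are libraries, and the bar beside them is the mean with its SD (n = 4). All axes start at 0; for each of the 10 genes the 175QK772T points do not overlap the WT points, and for Crh, Atxn1, Etnppl, Etv4 and Hoxb9 they overlap the 175Q points.

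Inferior olive genes leaned lower, but few were called. Of 8 genes 7 had negative values, with a median log2 fold change of -0.37. Together they summed to 163 to 219 CPM in 175QK772T and 227 to 245 CPM in WT, without overlap. Crh, corticotropin-releasing hormone, which climbing fibre neurons make, and Htr5b, a serotonin receptor of the inferior olive, were called lower, and the other 6 of 8 genes on the list were not called. Crh (chromosome 3, 19693401-19695396) was at 5.53, 3.62, 3.49 and 2.92 CPM in 175QK772T against 15.3, 18.6, 14.4 and 15 CPM in WT. The lowest WT library had more than the highest 175QK772T library by a wide margin, and the log2 fold change was -2.04 ± 0.16 (edgeR adjusted p 8.23e-06). Htr5b (chromosome 1, 121509842-121528465) was at 5.74, 8.44, 6.08 and 5.51 CPM in 175QK772T against 13.1, 13.9, 12.5 and 14.7 CPM in WT, with a log2 fold change of -1.07 ± 0.13 (adjusted p 0.00068).

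The 2 genes stood differently to 175Q. Crh averaged 3.89 ± 1.1 CPM in 175QK772T, 2.99 ± 0.29 CPM in 175Q and 15.8 ± 1.9 CPM in WT (SD, n = 4 each), and 175QK772T against 175Q did not pass (log2 fold change 0.37, adjusted p 0.17). Htr5b averaged 6.44 ± 1.4 CPM in 175QK772T, 1.73 ± 0.26 CPM in 175Q and 13.5 ± 0.95 CPM in WT, and 175QK772T was called higher than 175Q (log2 fold change 1.91, adjusted p 4.31e-05). C1ql1, the climbing fibre protein that organises synapses on Purkinje cells, averaged 24.2 ± 4.6 CPM in 175QK772T and 30.9 ± 3.5 CPM in WT and was not called between them (adjusted p 0.211). Against the 8.50 ± 2.2 CPM of 175Q it was called higher in 175QK772T (log2 fold change 1.51, adjusted p 0.000146). Ano2, Pou4f1 and Foxp2 were likewise called higher than in 175Q, with log2 fold changes of 1.57, 1.07 and 0.77, and not called against WT, with -0.44, -0.37 and 0.06. Leaving out 175QK772T replicate 2 raised the count lower than WT to 4. In all, 5 of the 8 inferior olive genes were called higher and none lower in 175QK772T than in 175Q.

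Other neuropeptide and monoamine genes were lower in small numbers. Of 19 neuropeptide genes 3 were called lower, namely Crh, Gcg and Cartpt, and none higher. Gcg, the preproglucagon gene of solitary tract neurons, was at 1.47, 0.755, 1.21 and 1.84 CPM in 175QK772T against 3.36, 3.42, 4.11 and 3.93 CPM in WT, without overlap (log2 fold change -1.52 ± 0.29, edgeR adjusted p 0.0128). Of 8 catecholamine neuron genes tested only Slc6a2, the noradrenaline transporter, was called (log2 fold change -0.87 ± 0.16, adjusted p 0.01), at 1.55 to 2.2 CPM in 175QK772T against 3.05 to 3.84 CPM in WT. Th and Dbh, which make dopamine and noradrenaline, had log2 fold changes of -0.42 and -0.54 and did not pass. Of 5 serotonin neuron genes only Htr1a, an inhibitory serotonin receptor, was called (log2 fold change -0.38 ± 0.063, adjusted p 0.00454), while Tph2 and Slc6a4 were not. None of 8 cholinergic and motor neuron genes was called, and their median log2 fold change was -0.14. The call of Cartpt was lost in 4 of the 8 fits without 1 library (adjusted p up to 0.0857).

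Prok1, a secreted prokineticin, was among the largest falls. It was at 3.57, 2.08, 3.30 and 4.15 CPM in 175QK772T against 7.37, 6.91, 7.14 and 6.98 CPM in WT (log2 fold change -1.13 ± 0.16, adjusted p 0.00105).

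Genes of synaptic transmission and excitability were called lower in a minority of cases and higher in none. Of 20 glutamate receptor and vesicular transporter genes 3 were called, all lower: the receptor subunits Gria1 (log2 fold change -0.30 ± 0.042), Grin2a (-0.29 ± 0.060) and the metabotropic receptor Grm4 (-0.49 ± 0.082). Of 15 voltage-gated channel genes 4 were called, all lower: Scn4b, a sodium channel subunit (-0.36 ± 0.049), Kcnc1, the fast Kv3.1 channel (-0.28 ± 0.046), Kcnab1 (-0.19 ± 0.042) and Kcnh3 (-1.32 ± 0.30). Scn4b was at 407, 383, 440 and 428 CPM in 175QK772T against 523, 563, 521 and 524 CPM in WT. Of 9 inhibitory neuron genes only Slc6a5 was called (log2 fold change -0.24 ± 0.058), and none of the 10 pan-neuronal and neurofilament genes was. Leaving out 1 library ended the call of Slc6a5 in 7 of 8 fits, of Kcnh3 in 6, and of Grin2a and Kcnab1 in 4 (edgeR adjusted p up to 0.157). Kcnh3 also overlaps Mcrs1 on the other strand, which had far more counts.

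Myelin and other glial lists held fewer called genes than the astrocyte lists. Of 12 oligodendrocyte and myelin genes 3 were called lower and none higher, with a median log2 fold change of -0.14. In all, 9 of the 12 had negative values. Together they summed to 16695 to 18040 CPM in 175QK772T and 18891 to 19647 CPM in WT, without overlap. Ugt8a, which makes galactocerebroside, had a log2 fold change of -0.35 ± 0.072 and the tight junction protein Cldn11 -0.24 ± 0.052. These 2 calls rested on few libraries: leaving out 1 library ended them in 3 and 4 of 8 fits (edgeR adjusted p up to 0.133). Mbp, Mog, Mag and Cnp had values between -0.05 and 0.05 and did not pass. Of 8 oligodendrocyte precursor genes only Bmp4, a growth factor of the lineage, was called (-0.77 ± 0.14). No microglia marker of 12 was called, with a median of 0.00, and no endothelial or pericyte marker of 12, with a median of -0.11. Of 12 glial reactivity genes tested Spp1, osteopontin, and the receptor Axl were called lower (-0.41 ± 0.055 and -0.21 ± 0.047), and Axl lost its call in 7 of 8 fits without 1 library (adjusted p up to 0.115).

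**Figure D4:**
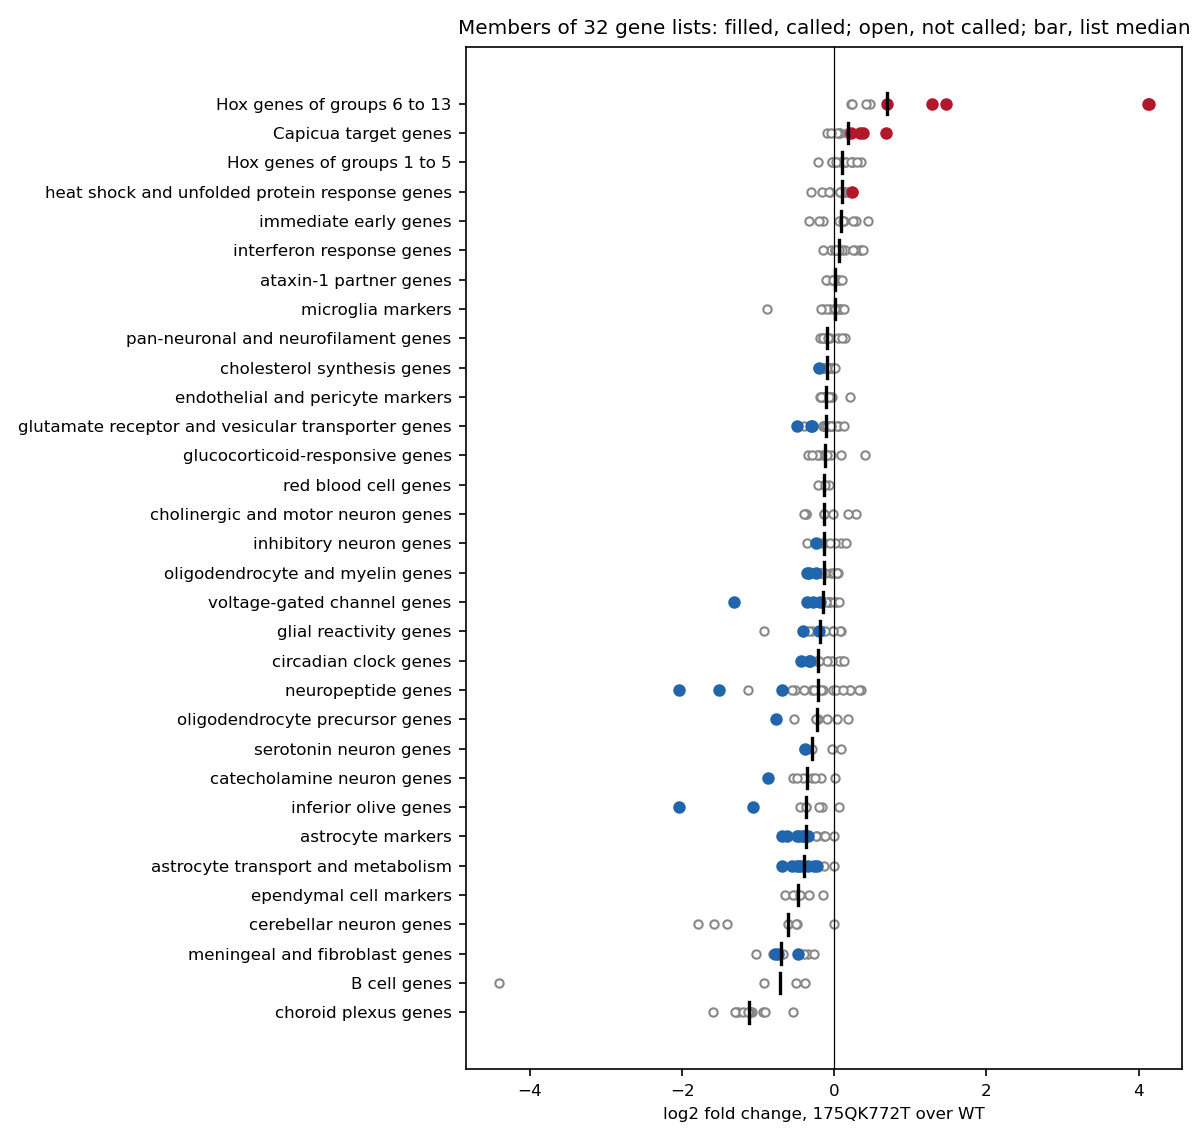
Log2 fold change of 175QK772T over WT for each tested member of 32 gene lists, ordered by list median; filled points were called (red higher, blue lower), open points were not, and the bar is the list median. The astrocyte lists hold 7 and 8 blue points, with medians of -0.38 and -0.40, and the Hox genes of groups 6 to 13 hold 5 red points.

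Hox genes of the posterior groups held the largest rises. Hox genes record position along the body axis, and groups 6 to 13 are typical of the spinal cord rather than the brain. Of 24 such genes 9 passed the filter on low counts and 5 of these were called higher: Hoxb9, Hoxd9, Hoxd8, Hoxa7 and Hoxc6. A gene that passed the filter through 175QK772T alone could only be higher, so the count carries that limit. Hoxb9 (chromosome 11, 96271457-96276595) was at 3.48, 6.34, 3.22 and 7.88 CPM in 175QK772T against 0.369, 0.103, 0.316 and 0.405 CPM in WT. The log2 fold change was 4.14 ± 0.36 (edgeR adjusted p 2.14e-05). Hoxd9 (chromosome 2, 74697727-74700208) was at 1.16, 1.99, 0.861 and 1.28 CPM in 175QK772T against 0.156, 0.021, 0.079 and 0.048 CPM in WT (log2 fold change 4.12 ± 0.35). Hoxa7 (chromosome 6, 52214491-52221854) was at 9.29, 8.83, 7.36 and 9.41 CPM in 175QK772T against 4.06, 3.13, 3.62 and 3.50 CPM in WT (log2 fold change 1.29 ± 0.099), and it shares bases with the antisense gene Hoxaas3. Hoxd8 had a log2 fold change of 1.47 ± 0.24 and Hoxc6 of 0.69 ± 0.14. In 175Q, Hoxb9 averaged 5.38 CPM and Hoxd9 1.22 CPM. Against 175Q, the log2 fold change of 175QK772T was -0.03 for Hoxb9, 0.16 for Hoxd9 and 0.54 for Hoxd8. None of these 3 was called (edgeR adjusted p 0.955, 0.744 and 0.162), while Hoxa7 was called lower (-0.61). Of the 9 genes tested, 2 were called higher and 1 lower than in 175Q.

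Other Hox genes were not called. Hoxb6, Hoxb7 and Hoxb8 had log2 fold changes of 0.23, 0.46 and 0.42 and did not pass, nor did Hoxa6 with 0.22. None of 14 Hox genes of groups 1 to 5 was called, with a median of 0.10. The level at which the medulla was cut is not given in the labels, so its part in the Hox values was not tested within the medulla. In the hippocampus of the same mice Hoxb9 was at 3.49, 4.71, 2.15 and 2.28 CPM in 175QK772T, and the 4 WT libraries held 0 counts. With a floor of 3 counts over the WT group that is at least 175-fold higher. In the striatum Hoxd8 was at 2.68, 2.21, 1.39 and 0.971 CPM in 175QK772T and at 0 counts in WT, at least 95.6-fold higher. Hoxa7 averaged 3.26 ± 0.21 CPM in the hippocampus of 175QK772T and 0.0629 ± 0.029 CPM in that of WT (SD, n = 4 each). In the cerebellum Hoxb9 and Hoxd8 were at 0 counts in all 4 175QK772T libraries, and 9 counts of each stood in 1 WT library. In the 10-week brainstem of other mice, Hoxb9, Hoxd8 and Hoxa7 had log2 fold changes of 0.94 ± 0.74, 0.40 ± 0.57 and 0.21 ± 0.42 and were not called.

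Capicua target genes were higher in part. Capicua represses genes of growth factor signalling, among them the Etv4 and Etv5 transcription factors and the Dusp, Spry and Spred inhibitors. Of 12 such genes 4 were called higher and none lower, with a median log2 fold change of 0.18. Etv4 (chromosome 11, 101769742-101785371) was at 23, 21.9, 21.3 and 25.3 CPM in 175QK772T, against 14.8, 15.1, 13.6 and 13.9 CPM in WT (log2 fold change 0.67 ± 0.079, edgeR adjusted p 0.000365). The groups were well apart, and 175Q stood at 22.7 ± 2.3 CPM (SD, n = 4), not called apart from 175QK772T. Etv5 had a log2 fold change of 0.22 ± 0.051, Dusp4 of 0.38 ± 0.091 and Spry4 of 0.33 ± 0.080. The calls of these 3 were lost without 1 library in 4, 7 and 7 of 8 fits (adjusted p up to 0.137), that of Etv4 in none. The other 8, Dusp6, Spry2 and Ccnd1 among them, had values between -0.09 and 0.24 and did not pass. Leaving out 1 library left 1 to 4 of the 12 called, and DESeq2 called 6.

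Promoters were searched for the octamers that Capicua binds, TGAATGAA, TGAATGGA, TCAATGAA and TCAATGGA, on both strands of RefSeq windows (GRCm38.p6) from 250 bases before to 50 bases after each annotated start. Of the 13193 tested genes with a window, 410 held an octamer (3.11%), as did 5 of 87 genes called higher (5.75%) and 9 of 210 called lower (4.29%). Windows were matched for 8 of the 12 Capicua targets, and those of Dusp6, Spry2 and Spred3 held a match (37.5%). None of these 3 was called, and neither window of Etv5 held a match. Etv4, Dusp4, Spry4 and Ccnd1 were not searched, so Etv5 was the only called target among the 8. Kcnj10 and Slc6a13 were among the genes called lower with a match. The genes called higher that held a match were Upp1, Maff, Maged2, Psat1 and 4933439C10Rik. Below, capitals mark the octamers, and the windows of Upp1 and Maff, the 2 of these among the largest rises, stand beside that of Dusp6, the known target with a pair of matches, both TCAATGGA on the other strand. A match is a description of the letters only.

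Upp1 promoter, chr11:9117758-9118057, plus strand: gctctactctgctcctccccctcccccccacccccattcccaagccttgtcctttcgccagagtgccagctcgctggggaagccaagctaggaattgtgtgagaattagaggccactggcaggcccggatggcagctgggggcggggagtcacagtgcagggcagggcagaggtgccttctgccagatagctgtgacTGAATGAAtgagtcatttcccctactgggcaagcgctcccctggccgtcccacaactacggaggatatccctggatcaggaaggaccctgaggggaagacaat

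Maff promoter, chr15:79347270-79347569, plus strand: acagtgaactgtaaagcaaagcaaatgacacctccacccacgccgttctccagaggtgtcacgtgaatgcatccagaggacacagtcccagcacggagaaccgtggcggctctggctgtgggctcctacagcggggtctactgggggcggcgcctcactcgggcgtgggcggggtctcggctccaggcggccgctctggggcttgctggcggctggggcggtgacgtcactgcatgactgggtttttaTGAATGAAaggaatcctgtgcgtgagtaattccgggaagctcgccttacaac

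Dusp6 promoter, chr10:99262981-99263280, plus strand: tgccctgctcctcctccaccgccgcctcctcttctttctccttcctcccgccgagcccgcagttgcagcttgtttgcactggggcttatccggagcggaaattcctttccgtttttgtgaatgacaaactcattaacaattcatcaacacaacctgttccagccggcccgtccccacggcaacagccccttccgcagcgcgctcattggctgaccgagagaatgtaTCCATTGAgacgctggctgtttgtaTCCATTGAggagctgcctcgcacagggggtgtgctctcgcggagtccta

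Upp1, uridine phosphorylase, was at 3.67, 3.30, 2.21 and 2.34 CPM in 175QK772T against 2.14, 1.6, 1.82 and 1.12 CPM in WT, and Maff, a small Maf transcription factor, at 2.84, 2.13, 3.08 and 1.89 CPM against 1.38, 1.65, 1.23 and 1.40 CPM. Neither gene's groups overlapped, but both calls (log2 fold changes 0.77 ± 0.18 and 0.81 ± 0.17) were lost in 6 and 5 of 8 fits without 1 library, with an edgeR adjusted p up to 0.107. Dusp6 averaged 23.1 ± 1.8 CPM in 175QK772T and 20.5 ± 1.7 CPM in WT (SD, n = 4 each; log2 fold change 0.17 ± 0.066, adjusted p 0.211).

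Other large rises were of genes at low levels. Ppp1r1c, an inhibitor subunit of protein phosphatase 1, was at 2.17, 1.90, 2.46 and 2.01 CPM in 175QK772T against 1.01, 0.494, 0.593 and 0.786 CPM in WT (log2 fold change 1.57 ± 0.20, edgeR adjusted p 0.00068). Spag6, a protein of the ciliary axoneme, was at 4.15, 4.39, 3.79 and 4.35 CPM in 175QK772T against 1.73, 1.42, 2.25 and 1.86 CPM in WT (1.20 ± 0.14, adjusted p 0.000276). The other ciliated cell genes gave no such rise, since none of the 7 ependymal markers tested was called and all 7 had negative values. Acy3, Tgif2 and Cd1d1, an aminoacylase, a repressor of TGF-beta signalling and a lipid antigen presenter, had log2 fold changes of 0.79, 0.71 and 0.65 without overlap. Cd1d1 was at 8.81 to 9.80 CPM in 175QK772T against 5.58 to 6.07 CPM in WT. Dll3, a Notch ligand, and Olfr1033, an olfactory receptor gene, had 0.72 and 0.74, and their calls were lost in 5 and 7 of 8 fits without 1 library (adjusted p up to 0.144).

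Stress, immune and activity genes gave few calls. Of 13 heat shock and unfolded protein response genes 1 was called, Dnajb1, a chaperone partner of Hsp70, higher by 0.23 ± 0.055 on the log2 scale, and that call was lost in 5 of 8 fits without 1 library (edgeR adjusted p up to 0.14). None of 15 interferon response, 11 immediate early or 11 glucocorticoid-responsive genes was called. Of 14 circadian clock genes 3 were lower, the clock output factors Hlf and Tef (-0.34 ± 0.052 and -0.31 ± 0.048) and Per3 (-0.43 ± 0.078), and none higher. Per3 ran from 37 to 48 CPM in 175QK772T and from 45.4 to 64.9 CPM in WT, so the groups overlapped. The time of day at which each mouse was killed is not in the labels. Of 17 cholesterol synthesis genes only Cyp51 was called, lower by -0.20 ± 0.046, and it shares bases with Akap9. Its call was lost in 5 of 8 fits without 1 library (edgeR adjusted p up to 0.137). Of 13 mitochondrially encoded genes only mt-Nd4l was called, and that call rested on WT replicates 1 and 3 at 96.5 and 47.7 CPM where the other WT libraries had 10.9 and 4.59 CPM, and the 175QK772T libraries 3.40 to 8.71 CPM. Its call was lost in 5 of 8 fits without 1 library (adjusted p up to 0.0919), and it overlaps mt-Nd4 on the same strand.

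Most of the other large falls were of genes at low levels, in libraries that also differed in neighbouring tissue. Prg4, lubricin, which shares bases with the far more abundant Tpr on the other strand, was at 1.01, 1.72, 4.21 and 0.856 CPM in 175QK772T against 7.19, 5.74, 9.73 and 13.1 CPM in WT (log2 fold change -2.27 ± 0.48, edgeR adjusted p 0.0216). Slc6a12, a betaine and GABA carrier, was at 1.74, 1.44, 2.51 and 1.71 CPM in 175QK772T against 4.61, 4.40, 5.4 and 5.29 CPM in WT (-1.42 ± 0.23, adjusted p 0.00384). Smoc2, a matrix protein, was at 1.13 to 2.43 CPM in 175QK772T against 3.60 to 5.50 CPM in WT (-1.36 ± 0.20). Cdh1, the epithelial cadherin, had -1.51 ± 0.33, Mdfi -1.40 ± 0.28, the matricellular protein Ccn3 -1.12 ± 0.20 and the anion exchanger Slc26a7 -0.99 ± 0.22.

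Of 10 meningeal and fibroblast genes 3 were called lower, Dcn, Slc6a13 and Mgp, and all 10 had negative values, with a median of -0.70. None of 12 choroid plexus genes was called over all 8 libraries, with a median of -1.13, and all 12 were called lower when 175QK772T replicate 2 was left out. Without that library 6 of 10 meningeal genes were called, against 0 to 5 without any other library. With the choroid plexus level of each library as a covariate, a fit added after the data were seen, 213 genes were called. That level was high in every WT library and, among 175QK772T libraries, in replicate 2 only. The covariate and genotype are thus partly confounded, and a lost call does not tell where the RNA came from. Prg4, Cdh1, Mdfi, Ccn3, Slc26a7, Dcn, Slc6a13 and Mgp were not among them, while Smoc2 and Slc6a12 were. In that order, the uncalled genes had log2 fold changes of -2.27, -1.51, -1.40, -1.12, -0.99, -0.47, -0.78 and -0.73 without the covariate. With the covariate they had -1.83, -1.14, -1.025, -1.05, -0.63, -0.41, -0.82 and -0.36. Such losses were not limited to these genes: 31 named genes lost their call in that fit and 45 kept it. Among those lost were Bmp4, Grin2a, Etv5, Tgif2, Tmc3, C1qtnf1, Prr13, Chchd2, Cxcl14, Hlf and Igfbp5. Leaving out 1 library ended the call of Mgp in 6, of Prg4, Cdh1, Slc26a7 and Slc6a13 in 5, of Dcn in 4 and of Mdfi in 1 of 8 fits (edgeR adjusted p up to 0.156). The part of neighbouring tissue in these falls was not tested further. None of 5 red blood cell, 4 B cell or 7 cerebellar neuron genes tested was called.

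Against 175Q, 1872 genes (9.46%) were called in 175QK772T, 1057 higher and 815 lower. Both comparisons use the same 175QK772T libraries, so their errors are shared, and values are given side by side. The mouse numbers of 175QK772T and 175Q form separate runs, so a difference between runs cannot be told apart from genotype here. The WT group spans both: replicates 1 and 2 have numbers near those of 175QK772T, and replicates 3 and 4 near those of 175Q. Against WT replicates 1 and 2 alone 96 genes were called in 175QK772T, and against WT replicates 3 and 4 alone 133. These fits hold fewer libraries, and the part of the runs was not tested. Some genes were called lower than in WT and higher than in 175Q. Kcnj10 was one, with 572 ± 14 CPM in 175QK772T, 452 ± 24 CPM in 175Q and 838 ± 15 CPM in WT (SD, n = 4 each). Itih3 averaged 87.6 ± 5.3 CPM in 175QK772T, 66.6 ± 3.8 CPM in 175Q and 164 ± 8.0 CPM in WT. Of the astrocyte markers 9 of 12 were called higher than in 175Q and none lower. Hoxa7, Spag6, Acy3 and Tmc3, a channel-like protein, were called higher than in WT and lower than in 175Q, and Spag6 averaged 4.17 ± 0.28 CPM in 175QK772T, 7.78 ± 0.88 CPM in 175Q and 1.82 ± 0.35 CPM in WT. Tmc3 shares bases with Gm16638 on the other strand.

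Other genes were called in the same direction against both groups, a pattern that an error shared through the 175QK772T libraries favours. Cox7a1, a subunit of cytochrome c oxidase, was at 5.83, 7.05, 5.12 and 6.39 CPM in 175QK772T, 3.98 ± 1.1 CPM in 175Q and 3.56, 2.65, 4.19 and 2.59 CPM in WT. Its log2 fold change was 0.93 ± 0.14 against WT (edgeR adjusted p 0.00225) and 0.65 against 175Q (adjusted p 0.0111). Chchd2, a mitochondrial protein, averaged 170 ± 15 CPM in 175QK772T, 143 ± 8.1 CPM in 175Q and 143 ± 8.8 CPM in WT. Cxcl14, a chemokine, and Prr13 had log2 fold changes of 0.33 and 0.26 against WT and 0.22 and 0.19 against 175Q. Among the lower genes were Ccn3, Col5a1, a fibrillar collagen chain (-0.72 against WT and -0.70 against 175Q), Per3 (-0.43 and -0.39) and C1qtnf1 (-0.57 and -0.35). Col5a1 ran from 8 to 13.4 CPM in 175QK772T and from 12.2 to 18.1 CPM in WT, with an overlap.

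Brainstem of other mice, at 10 weeks, gave a look at the same contrast in animals that shared no library with the medulla. The 175QK772T group there held 3 females and 1 male and the WT group 2 of each, with sex as a covariate. There 7 of 21130 genes (0.0331%) were called in 175QK772T against WT, and 6 of these were called in the same direction in the medulla: Crh, A330076C08Rik, Prok1, Sema7a, Igfbp5 and Atxn1. Crh had a log2 fold change of -2.04 in the medulla and -1.22 in the brainstem, Prok1 of -1.13 and -1.25, and Atxn1 of 0.34 and 0.35. Sema7a, a membrane-anchored semaphorin, was at 122, 119, 127 and 124 CPM in the 175QK772T medulla against 143, 171, 148 and 160 CPM in the WT medulla, with log2 fold changes of -0.34 in the medulla and -0.29 in the brainstem. A330076C08Rik was at 1.81 to 2.84 CPM in the 175QK772T medulla against 5.4 to 7.62 CPM in the WT medulla. Igfbp5, an insulin-like growth factor binding protein, was at 67.2, 79.5, 83.9 and 66.1 CPM in the 175QK772T medulla against 100.3, 146, 94.1 and 155 CPM in the WT medulla (log2 fold change -0.72 ± 0.14, edgeR adjusted p 0.0126). It was also called lower in the cerebellum, cortex, hippocampus and striatum of the same mice, with -1.33, -0.70, -0.67 and -1.02. Its medulla call was lost without 175QK772T replicate 4 (adjusted p 0.0633).

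Of 410 medulla calls tested in the brainstem, 368 (89.8%) had the same sign there, against 62.1% of all 19573 genes tested in both. By direction, 102 of 110 higher and 266 of 300 lower genes had the same sign, with medulla medians of 0.29 and -0.38 and brainstem medians of 0.09 and -0.12. The test of the difference between the sets called 0 of 21267 genes (0%) in edgeR, with 1137 at an unadjusted p below 0.05, and 68 in DESeq2, Hoxd9 and Ccn3 among them. Region, age and sequencing batch differ together between these sets, as does the sex make-up of 175QK772T, and they cannot be told apart.

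**Figure D5:**
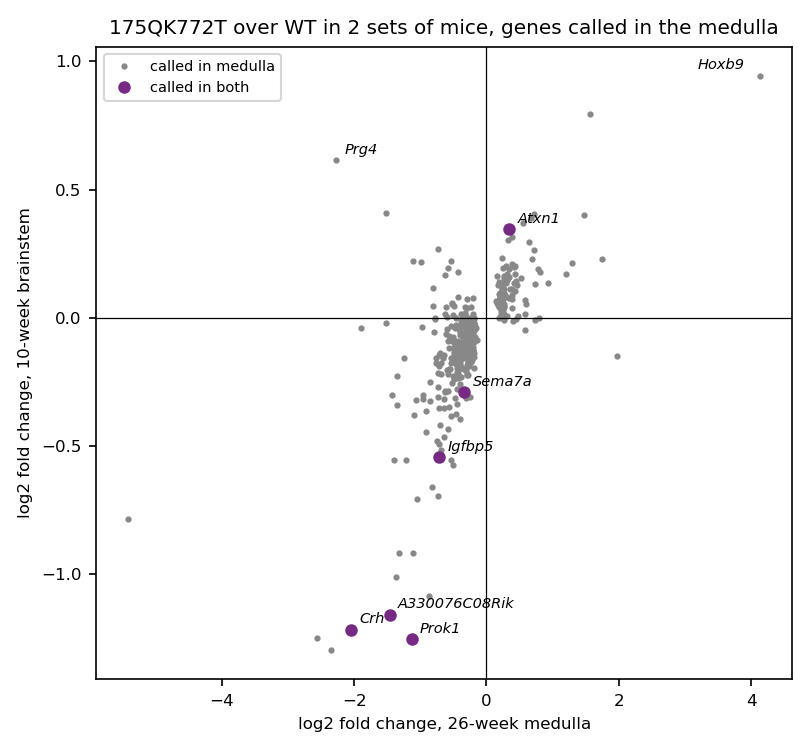
Log2 fold change of 175QK772T over WT in the 10-week brainstem (vertical axis) against that in the 26-week medulla (horizontal axis) for the 410 genes called in the medulla and tested in both; purple points were called in both sets. Most points lie in the lower left and upper right, 368 of 410 in all.

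No gene was called for a different change in females and males. The interaction of genotype and sex called 0 of 19787 genes (0%) in edgeR, with 1128 at an unadjusted p below 0.05, and 2 in DESeq2, mt-Nd3 and Col11a1. Each sex had 2 mice per genotype. Leaving out 175QK772T replicate 2 gave 8 calls, and leaving out replicate 1, also a female, gave 66 calls in a fit where the remaining 175QK772T female was the library rich in choroid plexus RNA.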

How the data were processed

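Poly(A) RNA was sequenced on Illumina instruments, per the labels' protocols, with libraries of the 10-week and 26-week mice prepared and sequenced as 2 batches. The authors deposited raw gene counts per library. The submitters' processing notes name bcl2fastq 2.20.0, Trimmomatic 0.33, HISAT2 2.1.0, featureCounts (Subread 1.6.2) and GRCm38. The 10-week file header records reverse-strand counting, while the strand setting of the 26-week counts is not given in the sources used here. No column was left unmapped.

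The 12 medulla libraries of 3 genotypes were fitted together in edgeR 4.0.16 (R 4.3.3) on the counts as deposited: filterByExpr (minimum count 10), TMM scaling, genotype and sex as terms, a quasi-likelihood test and Benjamini-Hochberg adjustment at 0.05 over all genes tested. The 10-week brainstem was fitted the same way. Levels are TMM-scaled CPM, and ± after a log2 fold change is its standard error. The script was tested on simulated data. Apart from the runs of mouse numbers, nothing in the labels shows whether libraries of a group differ in litter or day of dissection. The p-values therefore measure the spread between these mice. Replicates differed by more than sampling noise, and all were kept.

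Named genes were Atxn1, the 14 largest rises and 14 largest falls among called genes of at least 1 CPM without overlap between groups, up to 4 called members of each of 33 lists by smallest adjusted p, up to 4 in each direction called in the same or the opposite direction against 175Q, and genes called the same way in the brainstem. Some genes that this rule names are not reported here. Uncalled list members are named to describe a list. The comparison and the lists were chosen with earlier results of these data known. Alternatives were RLE scaling, no low-count filter, no sex term, 8 libraries only, a replicate block, DESeq2 1.42.0, parts of the WT group, a choroid plexus covariate added after the data were seen, and leaving out each library.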

Additional observations from a re-analysis of the deposited data

Results flagged for a closer look

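Of 214 combinations of a group and a named gene or summed list, 6 held a library far from the other 3 of its group by Dixon's criterion, and chance alone flags about 1 in 20. The summed choroid plexus genes were 3823 CPM in 175QK772T replicate 2, against 36.3 to 71.1 CPM in the other 175QK772T libraries. The summed circadian clock genes were 976 CPM in 175QK772T replicate 3, against 879 to 895 CPM. Among WT libraries, summed cerebellar neuron genes were 154.3 CPM in replicate 4, against 34.3 to 42.4 CPM, and summed B cell genes 197 CPM in replicate 1, against 60.9 to 75.9 CPM. Bmp4 was at 3.59 CPM in WT replicate 4, against 3.11 to 3.16 CPM, and Scn4b at 563 CPM in WT replicate 2, against 521 to 524 CPM.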

How the results depend on the processing

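The count of genes called in 175QK772T against WT (412, of which 111 higher and 301 lower) moved with several choices, and none of the 412 was called in the other direction in any of them. Without the low-count filter it was 1351 (335 higher, 1016 lower), in DESeq2 933 (323 and 610), with the choroid plexus covariate added after the data were seen 213 (27 and 186), with only the 8 libraries compared 64 were higher, with WT replicates 1 and 2 alone 96 (16 and 80), and with WT replicates 3 and 4 alone 133 (22 and 111). Leaving out 1 library gave 210 to 926 calls (36 to 228 higher, 164 to 698 lower), the most without 175QK772T replicate 2. Of the 412 genes, DESeq2 still called 406, the fit without the filter 403, the replicate block 271, the choroid plexus covariate 165, WT replicates 3 and 4 alone 129, WT replicates 1 and 2 alone 91, and the fits without 1 library 205 to 379. At an adjusted p below 0.01 there were 169 calls (30 and 139), and 95 reached 1.5-fold (21 and 74). With the replicate number as a block 296 genes were called, 51 of them higher. Same-numbered 175QK772T and WT libraries had correlations of -0.222, 0.205, 0.116 and -0.0705, so the numbers do not pair the mice. Against 175Q, 1872 calls became 730 to 1838 when 1 library was left out. The test for a difference between sexes gave 292 calls without the filter, 2 in DESeq2 and 0 to 66 without 1 library, and that between medulla and brainstem 292, 68 and 0 to 1. RLE scaling and dropping the sex term kept the main count within 1.5 times (408 and 327). The causes were not tested. Depth limits genes near 1 CPM, such as Kcnh3.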

Other observations

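Some gene families, chosen after their values were seen, were shifted in small steps. Of 95 cytosolic ribosomal protein genes 89 had a positive log2 fold change in 175QK772T against WT, with a median of 0.10, but only 1 was called. Of 46 genes of respiratory chain complex I 44 were positive (median 0.12, 1 called), and of 27 genes of cytochrome c oxidase 23 were (median 0.15, 2 called). Of 43 collagen genes 34 were negative and 5 called lower (median -0.22). Of 88 potassium channel genes 68 were negative and 9 called lower. Of 9 connexin genes 4 were called lower, among them Gja1 and Gjb6, which the astrocyte markers already count. Among neurotransmitter transporters of the Slc6 family, 8 of 18 were called lower and 1 higher. Over all genes tested, 1.52% were called lower and 0.561% higher, with a median log2 fold change of -0.00089.

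Changes moved with gene length. The median exon length was 2744 bases for the 111 genes called higher and 5463 bases for the 301 called lower, against 3673 bases for all 19787 genes tested. Over all genes in 4 equal classes from short to long, the median log2 fold change of 175QK772T against WT was 0.058, 0.018, -0.004 and -0.033, and the classes held 20, 61, 94 and 126 genes called lower and 35, 40, 25 and 11 called higher. In 175Q against the same WT libraries the medians were -0.025, -0.015, 0.002 and 0.023. The part of length or RNA quality in the calls was not tested.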
